A study of Mus musculus with 6 samples.

Results

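The pituitary placode and hormone genes are 8 genes, Six3, Six6, Hesx1, Lhx3, Lhx4, Pou1f1, Cga and Pomc, taken by their symbols from a deposited table of 49492 gene rows. All 8 had a row. They were measured by RNA sequencing in the soft palate, the muscular rear part of the palate. The mouse embryos were at stage E14.5. The 3 control libraries came from wild-type embryos and the 3 knockout libraries from Dlx5-/- embryos, in which Dlx5, a homeobox gene of the pharyngeal arches, has both copies disrupted. Tissue was the dissected posterior part of the palate. The labels name no separate animals and do not say whether embryos were pooled. The p-values therefore reflect only how these libraries vary, which may be technical.

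The anterior pituitary grows from Rathke's pouch, a pocket of the oral ectoderm that folds up from the roof of the mouth towards the floor of the brain. Six3, Six6 and Hesx1 mark the anterior placodal and neural ectoderm from which the pouch arises, and Lhx3 and Lhx4 are needed for the pouch to grow into a gland. Pou1f1 then directs the lineages that make growth hormone, prolactin and thyrotropin, while Pomc encodes the precursor of corticotropin and melanotropins and Cga the subunit shared by thyrotropin and the gonadotropins. Six3 and Six6 are also known from the eye and the hypothalamus.

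Every member had a lower mean in the Dlx5-/- libraries than in the controls. For 7 members (Six3, Six6, Pou1f1, Lhx3, Lhx4, Cga and Pomc) every knockout library lay below every control library. Their knockout mean was 13.2% to 33.7% of the control mean. The 13.2% is that of Lhx4, which passed a filter on low counts only through the controls. Without Lhx4 the range starts at 18.6% (Six3). Hesx1 was close to the limit of detection. None of the 7 passed the test across all genes at an adjusted p of 0.05, so what follows gives levels and estimates and not called changes.

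The promoters of Cga, Pomc and Pou1f1 are shown because these are the hormone genes and the hormone-lineage factor among the members. Each is the 250 bases before the RefSeq start on GRCm38.p6, plus strand, with matches to TATAAA (searched on both strands) and TAATTA (the same on both strands) in capitals. TAATTA is the core that many homeodomain proteins bind, LIM and Dlx proteins included. The windows are chr4:34893529-34893778 for Cga, chr12:3954695-3954944 for Pomc and chr16:65520262-65520511 for the upstream of the 2 Pou1f1 starts.
Cga: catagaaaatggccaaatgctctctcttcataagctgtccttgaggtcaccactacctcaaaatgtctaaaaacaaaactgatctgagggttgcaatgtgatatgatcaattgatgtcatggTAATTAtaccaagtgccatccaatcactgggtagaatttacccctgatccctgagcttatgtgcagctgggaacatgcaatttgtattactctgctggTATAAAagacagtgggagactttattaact
Pomc: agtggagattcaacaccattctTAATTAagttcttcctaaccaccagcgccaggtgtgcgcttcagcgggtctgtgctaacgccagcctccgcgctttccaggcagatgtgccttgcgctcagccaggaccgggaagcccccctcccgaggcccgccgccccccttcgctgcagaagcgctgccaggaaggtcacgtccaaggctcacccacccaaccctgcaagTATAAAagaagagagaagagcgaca
Pou1f1: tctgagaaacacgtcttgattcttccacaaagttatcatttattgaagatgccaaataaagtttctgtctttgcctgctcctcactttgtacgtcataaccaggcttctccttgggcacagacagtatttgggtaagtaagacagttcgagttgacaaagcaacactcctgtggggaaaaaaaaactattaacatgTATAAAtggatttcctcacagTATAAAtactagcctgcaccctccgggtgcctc

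All 8 members had a RefSeq promoter window, 10 windows in all. TATAAA was present in 4 of these 10 windows, those of Cga, Pomc and the upstream starts of Lhx3 and Pou1f1, against 12.4% of 32851 windows of the same length. It began 30 bases before the start in Cga and 25 bases before it in Pomc. The Pou1f1 window held it at 2 places, 54 and 33 bases before the start. TAATTA was present in 2 of the 10 windows, in Cga and Pomc, against 4.84% of all windows. The other motifs searched on both strands were TAATCC (0 windows of the 10; 6.25% of all), TAAGCC (1, the downstream start of Lhx3; 8.2%), TGACGTCA (0; 1.55%) and TGATAC (0; 4.64%). The windows of Six3, Six6, Lhx4 and Hesx1 held none of these strings. A match describes the letters of the window and says nothing about binding.

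Library totals ran from 6891798 to 11922442 estimated counts. Levels are CPM (counts scaled to library size) after TMM normalization, which sets the libraries to a common scale from the bulk of their genes. Dlx5 itself ran from 15.7 to 26.1 CPM in wild type and from 0.829 to 1.63 CPM in Dlx5-/- libraries, so each library matched its label. Genes of palate mesenchyme were present in both groups: Barx1 averaged 70.7 and 61.4 CPM (wild type, then knockout), Osr2 17.7 and 22.1 CPM and Pax9 40.9 and 25.6 CPM. Knockout replicate 3 differed most from the rest (mean correlation with them 0.959, against 0.970 to 0.976). In it, ribosomal RNA rows took 13.0% of the counts, against 18.8% to 29.0% elsewhere. A list of 12 forebrain genes summed to 379 CPM in this library, against 20.6 to 49.1 CPM in the controls. The same sum was 59.9 and 36.5 CPM in knockout replicates 1 and 2. The value without knockout replicate 3 is given where the call changed or the fold moved by over 1.5 times. This covers the members and the genes below that have their own edgeR adjusted p or log2 estimate. That value was not computed for some other named genes, among them Krt17, Cdh1, Gnal, Cyp26b1 and Pitx1.

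Six3, a transcription factor gene of the forebrain and lens, lies on chromosome 17 (85613608 to 85629302, plus strand, GENCODE annotation on GRCm38). It measured 9.82, 14.3 and 20.3 CPM in control replicates 1, 2 and 3, and 2.25, 4.56 and 1.43 CPM in knockout replicates 1, 2 and 3. The highest knockout stood below the lowest control by more than the whole knockout range. The log2 fold change was -2.44 (SE 0.43; 95% confidence interval -3.44 to -1.45; adjusted p = 0.0624, edgeR quasi-likelihood). Without knockout replicate 3 it was -2.09 and passed (adjusted p = 0.0408, edgeR; 0.0408 to 0.287 over libraries left out).

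Six3 overlaps its antisense neighbour Six3os1 over 4791 bases in the annotation. Whether counting used strand is not given in the sources used here, so reads of this pair may be divided between the rows. Six3os1 measured 12.1 ± 5.92 CPM in wild type and 2.16 ± 1.81 CPM without Dlx5 (SD, n = 3 each; log2 fold change -2.49, SE 0.56; adjusted p = 0.101, edgeR). Added together, the pair gave 18.4, 23.2 and 39.1 CPM in wild type and 3.20, 8.80 and 2.72 CPM without Dlx5. Their sum was thus 5.48-fold lower in the knockouts, close to the 5.38-fold of Six3 alone (two-sided exact permutation p = 0.1 for the sum, the smallest that 3 against 3 allows). Six3 took 51.7% to 61.5% of the pair's counts in controls and 51.9% to 70.4% in knockouts.

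Six6, the close paralog of Six3, on chromosome 12 (72939892 to 72944899, plus strand), had control levels of 14.6, 28.1 and 19.8 CPM. Its knockout levels were 2.25, 8.26 and 1.58 CPM. Knockout replicate 2 was the highest of the knockouts for both Six3 and Six6, and knockout replicate 3 the lowest. The log2 fold change of Six6 was -2.40 (SE 0.55; 95% confidence interval -3.66 to -1.14; adjusted p = 0.113, edgeR). The transcript 4930447C04Rik, which shares 1 end of this locus, had 16.4 to 27.1 counts in controls and 15.3 to 28.0 in knockouts.

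The paralogs Six2, Six4 and Six5, which act in mesenchyme, muscle precursors or sensory placodes, had estimates near 0. Six2 measured 103 CPM in wild type and 92.9 CPM without Dlx5. Six4 measured 33.7 and 35.4 CPM and Six5 17.6 and 20.4 CPM. Their log2 fold changes were -0.15 (95% confidence interval -0.45 to 0.15), 0.07 (-0.13 to 0.27) and 0.20 (-0.08 to 0.48), with adjusted p from 0.539 to 0.814 (edgeR). The intervals of Six3 and Six6 lie wholly below those of these 3 paralogs. The difference between paralogs was not itself tested.

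Hesx1, a repressor of the early pouch on chromosome 14, had 3, 5 and 0 counts in the controls and 0 counts in each knockout. It was under the filter on low counts (a mean of 1 CPM) and was not tested. Pooled over the group, the controls stood at 0.280 CPM. That is 2.89-fold the limit that 0 counts in the knockouts allows (3 counts over the group, 0.0971 CPM, counting error only). The counting error of the 8 control counts is not included. Control replicate 3 also had 0 counts, so the groups overlapped.

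Lhx3, a LIM homeobox gene on chromosome 2 (26200212 to 26208289, minus strand) required in the pouch, measured 7.45, 8.60 and 6.18 CPM in controls. The knockouts had 3.08, 3.48 and 0.377 CPM. Knockout replicates 1 and 2 stood at 41.5% and 46.9% of the control mean and knockout replicate 3 at 5.09%, from 5 counts. The edgeR estimate was -1.74 on the log2 scale (SE 0.59; adjusted p = 0.265), and -1.19 without knockout replicate 3 (adjusted p = 0.0828, edgeR; 0.0828 to 0.593 over libraries left out).

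Lhx4, its paralog on chromosome 1 (155698031 to 155751684, minus strand), was scarce. It had 9, 35 and 11 counts in wild type and 0, 1 and 8 without Dlx5, which is 0.972, 2.84 and 1.58 CPM against 0, 0.109 and 0.604 CPM. It passed the filter only through the controls, so its difference is bound to the filter and is given as a description. Unlike in the other 6 tested members, replicate 3 was the highest of the knockouts. The edgeR estimate was -2.69 on the log2 scale (SE 0.84; adjusted p = 0.222), and -4.73 without knockout replicate 3 (adjusted p = 0.0761).

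Pou1f1, a POU-domain factor on chromosome 16 (65520511 to 65535005, plus strand), measured 7.23, 17.7 and 17.7 CPM in controls. In knockouts it measured 3.20, 6.74 and 0 CPM. The lowest control and the highest knockout nearly touched, 7.23 against 6.74 CPM. Knockout replicate 3 had 0 counts, which allows up to 0.226 CPM. The log2 fold change was -2.15 with a wide error (SE 0.91; 95% confidence interval -4.23 to -0.07; adjusted p = 0.370, edgeR), and -1.51 without knockout replicate 3 (adjusted p = 0.165, edgeR).

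Pomc, on chromosome 12 (3954951 to 3960642, plus strand), was the most abundant member. It had 635, 1472 and 802 estimated counts in wild type and 433, 373 and 43 without Dlx5. On the CPM scale these were 68.6, 119 and 115 against 51.3, 40.5 and 3.24. Knockout replicates 1 and 2 stood at 50.7% and 40.1% of the control mean and knockout replicate 3 at 3.21%. The edgeR estimate was -1.71 on the log2 scale (SE 0.70; adjusted p = 0.352). Without knockout replicate 3 it was -1.14 with a smaller error (SE 0.23; adjusted p = 0.0526, edgeR).

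Cga, on chromosome 4 (34893779 to 34907370, plus strand), measured 7.67, 11.93 and 11.36 CPM in wild type. The knockouts were close to each other at 4.26, 3.91 and 2.26 CPM, all under the lowest control. Its log2 fold change of -1.59 had the smallest error among the members (SE 0.30; 95% confidence interval -2.27 to -0.90; adjusted p = 0.0724, edgeR). Antisense transcripts annotated over Cga (Platr9) and Lhx3 (Gm27196) had at most 4.22 counts in any library.

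**Figure D1:**
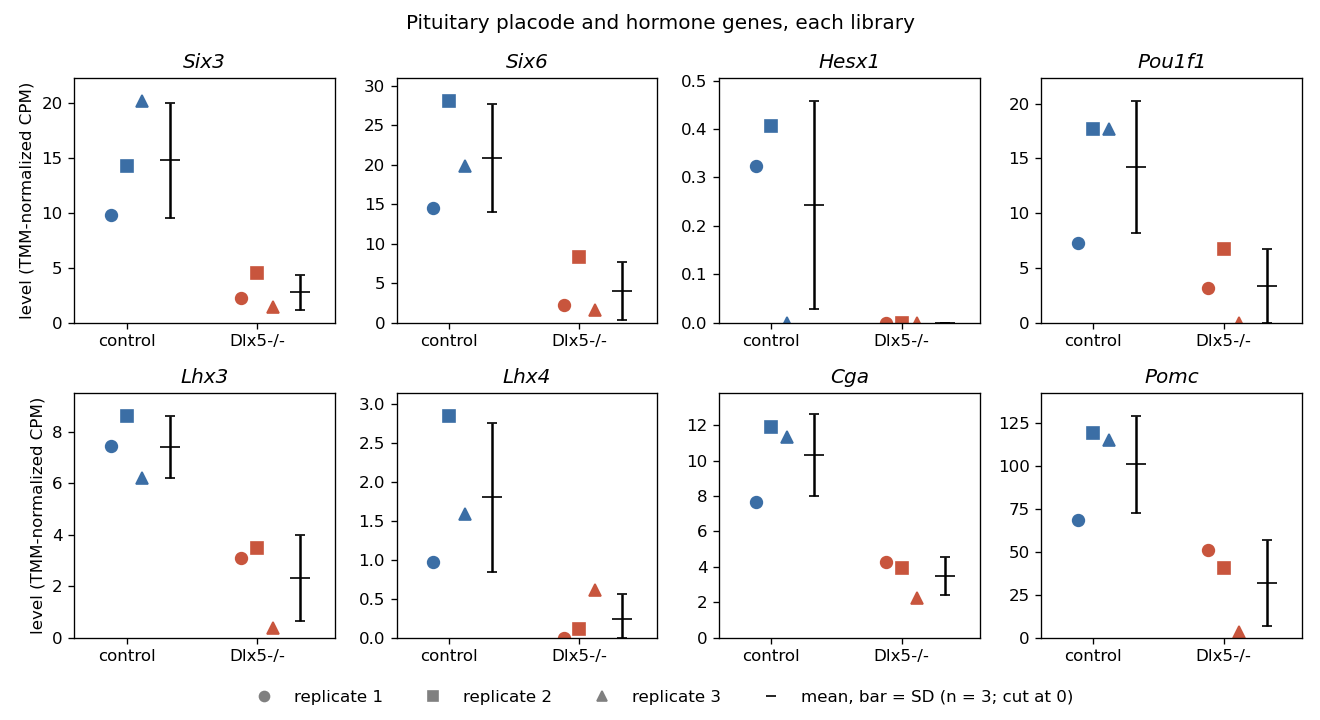
Level of each of the 8 members in TMM-normalized CPM (vertical axes, each from 0) in 3 control and 3 Dlx5-/- libraries; symbols mark the replicate number and black bars the mean ± SD of 3 libraries. For the 7 members other than Hesx1, all 3 knockout points lie below all 3 control points, and for Pou1f1 the lowest control and highest knockout are at 7.23 and 6.74 CPM.

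The 3 knockout libraries were not alike in how low the members were. The median over the 8 members was 18.9% of the control mean in knockout replicate 1, 38.8% in replicate 2 and 6.35% in replicate 3. Pomc, Lhx3 and Pou1f1 stood at 22.5% to 50.7% in replicates 1 and 2 and at 0% to 5.09% in replicate 3. Six3 and Six6 were already at 15.2% and 10.8% in replicate 1, and Cga remained at 21.9% in replicate 3. Summed over the 8 members the level was 117, 203 and 192 CPM in wild type and 66.3, 67.6 and 9.51 CPM without Dlx5. Pomc made up 58.8% to 59.99% of that sum in the controls, and 77.3%, 59.97% and 34.1% in knockout replicates 1, 2 and 3. Replicate 3 is also the library with the high forebrain sum, and the part of this in the low members was not tested. In bulk tissue, fewer cells of a type and less RNA per cell cannot be told apart.

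**Figure D2:**
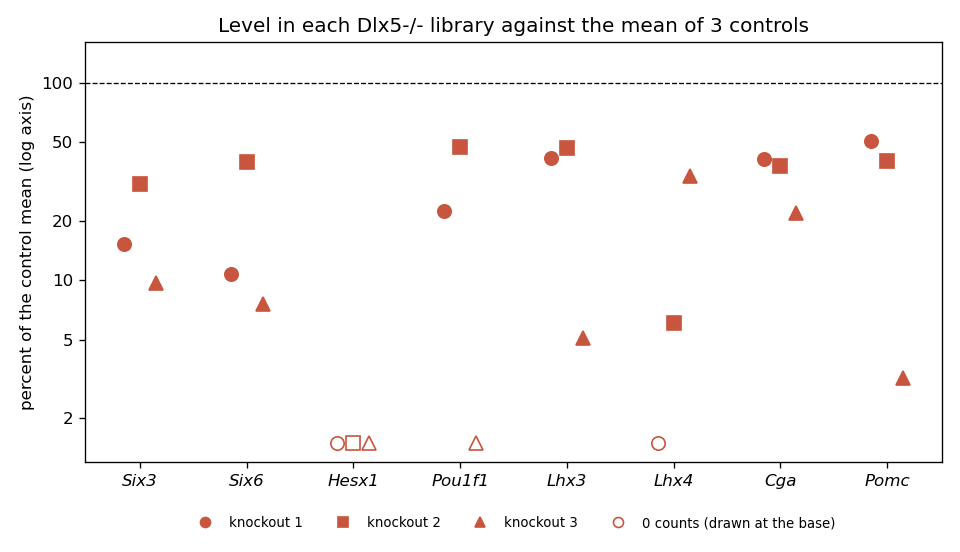
Level of each member in each Dlx5-/- library as a percent of the mean of the 3 controls (log axis; dashed line 100%); open symbols at the base have 0 counts. All points lie below the line, and knockout replicate 3 (triangles) is lowest for Six3, Six6, Pou1f1, Lhx3, Cga and Pomc but highest for Lhx4.

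Per kilobase of annotated exon, the control levels ordered the members as Pomc (76.7 CPM per kb), Cga (10.8), Six6 (5.20), Pou1f1 (3.65), Six3 (2.72), Lhx3 (2.43), Lhx4 (0.313) and Hesx1 (0.195). The control libraries of Pomc and Cga did not overlap, nor did those of Cga and Six6, or of Lhx3 and Lhx4. Those of Six6 and Pou1f1, of Pou1f1 and Six3, of Six3 and Lhx3, and of Lhx4 and Hesx1 overlapped. In the knockouts the order was the same except that Lhx3 (0.759) stood above Six3 (0.505).

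The members were then placed among all 16218 genes that passed the filter. They were chosen with earlier results of these data known, so the shares and places below are a description. In the edgeR quasi-likelihood test, 0 of the 7 members tested passed at an adjusted p of 0.05, where 0.00617% of all genes passed as lower (1 gene, Dlx5). At an unadjusted p of 0.05, all 7 tested members were lower, 6 of them besides Lhx4, against 7.23% of all genes. Knockout and control libraries did not overlap for these same 7, 6 of them besides Lhx4. Every knockout lay below every control for 9.71% of all genes. The median log2 fold change was -2.15 over the 7, Lhx4 included, and 0.01 over all genes. Lhx4 passed the filter only through the controls, so its part in these values and its place below are bound to the filter. Ordered by log2 fold change from the lowest, Lhx4 took place 12, Six3 place 14, Six6 place 15, Pou1f1 place 22, Lhx3 place 40, Pomc place 46 and Cga place 62 of 16218.

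**Figure D3:**
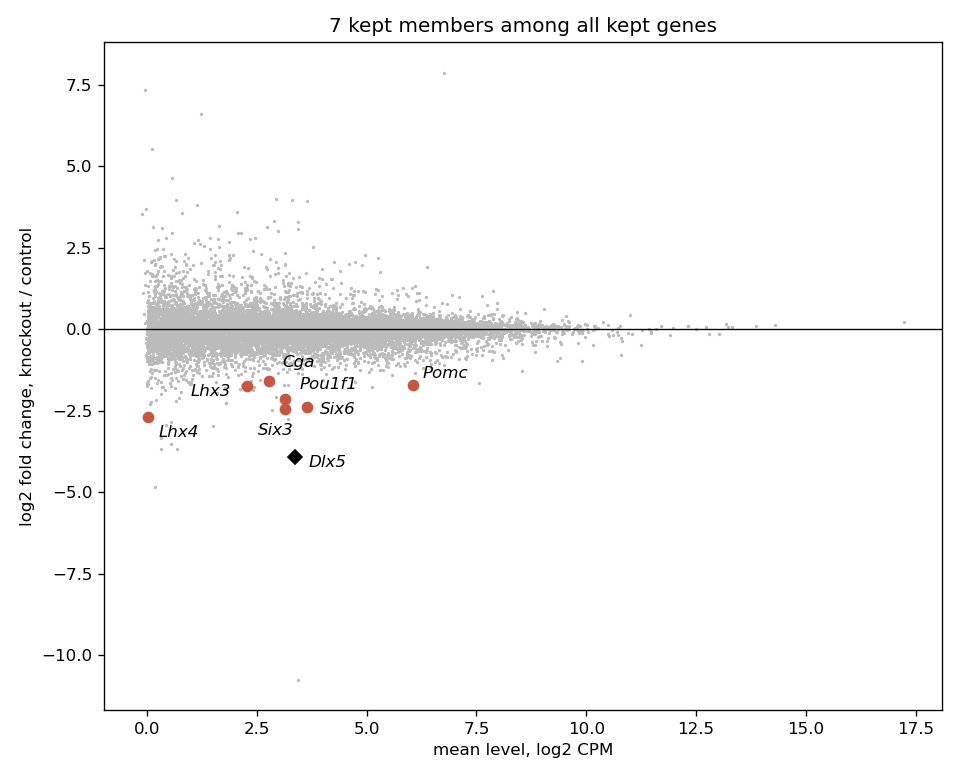
Log2 fold change (knockout over control, vertical axis) against mean level in log2 CPM (horizontal axis) for 16218 genes (grey), with the 7 tested members (red) and Dlx5 (black diamond). The members lie along the lower edge of the cloud, from -1.59 (Cga) to -2.69 (Lhx4, which passed the filter only through the controls).

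Other tools called some members. DESeq2, which gave Lhx4 no adjusted p, called Six3 (adjusted p = 1.76e-06), Cga (adjusted p = 0.000602) and Six6 (adjusted p = 0.0438), against 2.38% of all genes called lower. Limma-trend on log2(CPM + 1) called Six3 alone (adjusted p = 0.0463, limma), against 0.543% of all genes (0.536% with a pseudocount of 0.5). With library totals in place of TMM, edgeR called Six3 alone, against 0.253%. With TMM and a threshold of 0.1, edgeR called Six3 and Cga, against 1.58%. With 1 library left out, 0.0123% or fewer of all genes were called lower, except without knockout replicate 3 (0.937%). With no filter on low counts, edgeR called 6 of 8 members (Six3, Six6, Pou1f1, Lhx3, Cga and Pomc), against 1.46% of 29870 genes called lower.

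**Figure D4:**
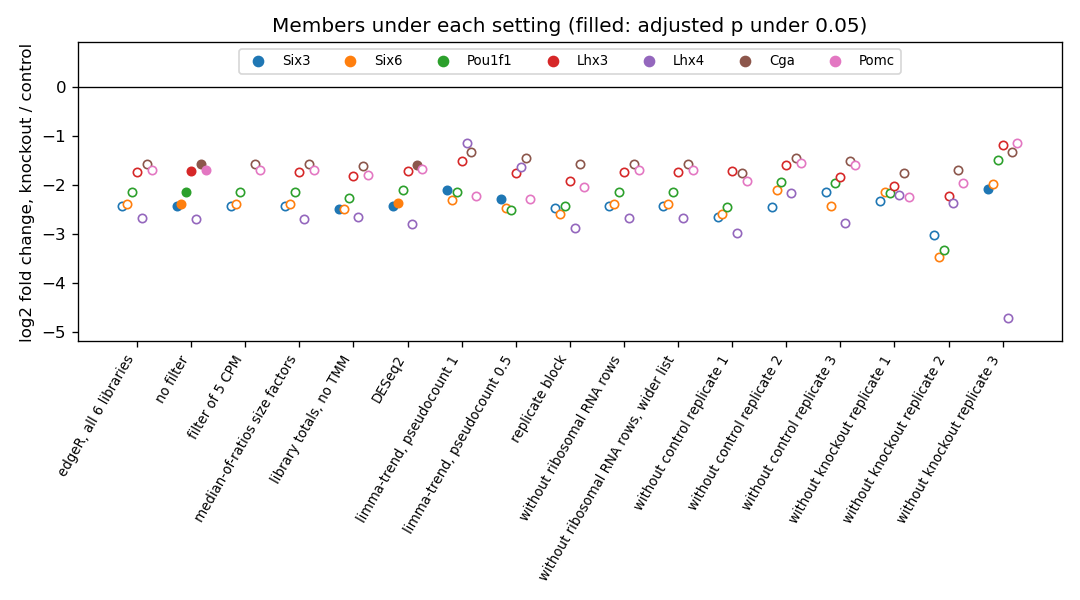
Log2 fold change (vertical axis) of the 7 tested members under the test of all 6 libraries and each alternative (horizontal axis); filled points have an adjusted p under 0.05. All points lie below 0; the filter of 5 CPM removed Lhx3 and Lhx4, and the lowest point is Lhx4 without knockout replicate 3 (-4.73).

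Other genes of the pituitary were read from lists of its transcription factors, and of its hormones and hormone receptors. Of 22 transcription factors, 21 were tested, and 0 passed the edgeR test in either direction. At an unadjusted p of 0.05, 7 were lower and 5 higher, and the median log2 fold change was -0.18. For comparison, here and in the lists below, 2081 of all 16218 genes had such a p in either direction, 1172 of them lower. Isl1, a LIM homeobox gene shared with sensory neurons, measured 87.0 ± 11.6 CPM in wild type and 53.4 ± 10.9 CPM without Dlx5 (SD, n = 3 each). The zinc-finger factor Insm1 of endocrine and neural precursors measured 10.2 ± 1.16 and 6.25 ± 0.849 CPM. Above the controls were Gata2 (11.02 ± 3.24 against 20.1 ± 3.24 CPM), a factor of thyrotropes and gonadotropes that acts in many other cells, and Eya1 (39.3 ± 7.53 against 58.3 ± 6.25 CPM), a transcriptional coactivator. Their adjusted p were 0.0939, 0.157, 0.158 and 0.135 (edgeR). Pitx1, which marks oral ectoderm and hindlimb, measured 33.7 and 29.9 CPM, with overlapping groups. At an adjusted p of 0.05, DESeq2 called 2 genes of this list lower, Isl1 among them, and 2 higher, Eya1 and Gata2. Limma-trend called 0.

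Tbx19, the T-box factor of Pomc-producing cells, was chosen after its values were seen and, like Lhx4, passed the filter only through the controls. It measured 2.05, 2.52 and 3.45 CPM in wild type and 1.18, 0.761 and 0 CPM without Dlx5 (edgeR adjusted p = 0.334; log2 fold change -2.12, SE 0.84). As with Pomc and Pou1f1, knockout replicate 3 was the lowest library, and without it the Tbx19 estimate was -1.44.

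Of 12 hormone and receptor genes, 3 passed the filter and 0 the edgeR test, with 2 lower and 1 higher at an unadjusted p of 0.05 and a median log2 fold change of -1.21. Of these 3, Tshb and Drd2 passed the filter only through the group where they were high, so the count and the median rest on the filter. Tshb, the thyrotropin-specific subunit that pairs with the Cga product, had 13, 42 and 24 counts in wild type and 11, 10 and 6 without Dlx5 (edgeR adjusted p = 0.266; log2 fold change -1.57, SE 0.54). The neuropeptide gene Gal measured 31.7 ± 3.85 CPM in wild type and 13.9 ± 6.32 CPM without Dlx5 (SD, n = 3 each; log2 fold change -1.21; adjusted p = 0.142, edgeR). Without knockout replicate 3 the Gal estimate was -0.87 and passed (adjusted p = 0.0395, edgeR). Drd2, the dopamine receptor, was high only in knockout replicate 3, with 63 counts there and 1 or 2 in every other library; its log2 estimate of 3.54 was 0.23 without that library. Gh and Ghrhr had 0 counts in all 6 libraries. DESeq2 called 1 gene of this list, Gal, and limma-trend called 0.

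**Figure D5:**
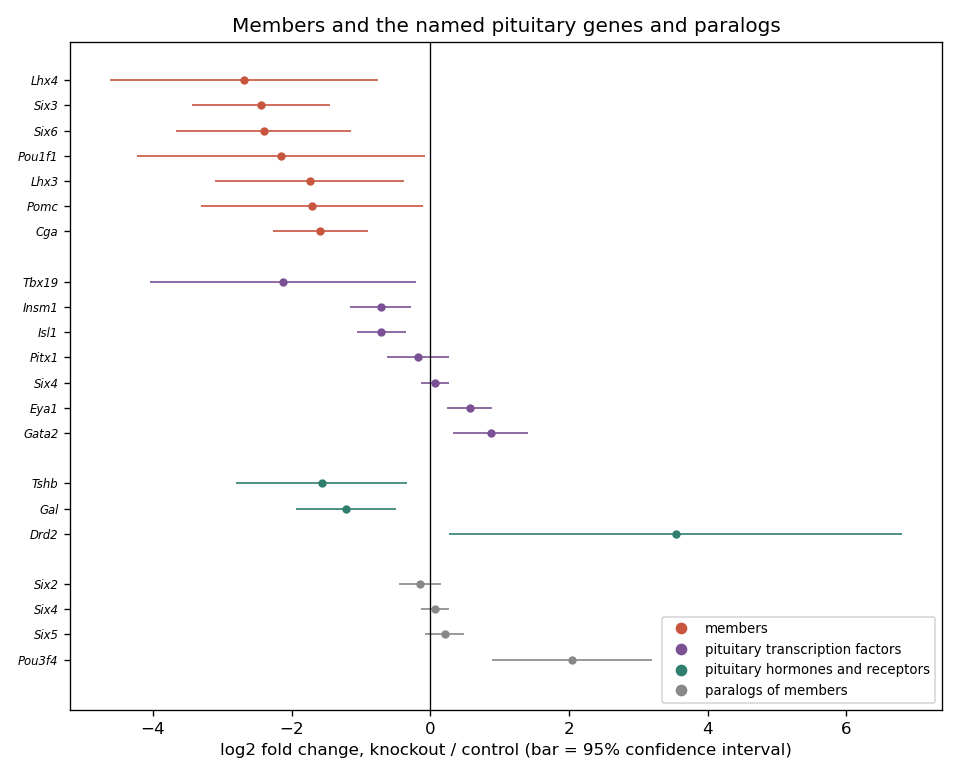
Log2 fold change (horizontal axis; bars are 95% confidence intervals) of the 7 tested members and of the other pituitary transcription factors, hormones and receptors, and paralogs that the text names. Tbx19 and Tshb, which like Lhx4 passed the filter only through the controls, lie beside the members, so their place is bound to the filter. Six2, Six4 and Six5 lie at 0.20 or closer to 0.

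Genes of hormone processing and secretory granules, which endocrine cells share with neurons, were lower in estimate for 11 of 12, with a median log2 fold change of -0.71. None passed edgeR at 0.05; 7 were lower and 0 higher at an unadjusted p of 0.05. Pcsk1n, a convertase inhibitor, measured 80.9 ± 9.13 CPM in wild type and 40.6 ± 6.35 CPM without Dlx5 (adjusted p = 0.0527, edgeR), and the granule protein gene Chga 77.0 ± 9.03 and 43.9 ± 5.88 CPM (adjusted p = 0.0549, edgeR). Cadps measured 45.2 ± 3.81 and 27.3 ± 1.92 CPM, and Scg2 53.0 ± 8.96 and 31.1 ± 3.90 CPM. Without knockout replicate 3, all 4 of these genes passed, with edgeR adjusted p of 0.0290 for Pcsk1n, 0.0307 for Cadps, 0.0341 for Scg2 and 0.0378 for Chga. DESeq2 called 5 of these 12 genes lower (Cadps, Chga, Pcsk1n, Scg2 and Scg3) and limma-trend 3 (Cadps, Chga and Pcsk1n). Signals that act on the pouch, such as FGF, BMP and Wnt ligands and receptors, had a median log2 fold change of 0.06 over 17 tested genes. Of these 0 passed. At an unadjusted p of 0.05, 3 were higher and 0 lower, where 2081 of all 16218 genes had such a p, 1172 of them lower. The 3 were Fgf10 (9.49 ± 0.809 against 14.97 ± 3.18 CPM), Wnt5a (37.8 ± 5.34 against 60.01 ± 18.3 CPM) and Cyp26b1 (20.5 ± 2.56 against 26.2 ± 3.84 CPM). DESeq2 called 1 of the 17 genes, Wnt5a, and limma-trend called 0.

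Markers of other cell types were lower in the knockouts in some lists and overlapped or were higher in others, and their part in the members' levels was not tested. For comparison, 9.71% of all tested genes had every knockout below every control, and DESeq2 called 2.38% of them lower. Summed levels of 11 sensory ganglion genes ran from 1024 to 1221 CPM in controls and from 410 to 674 CPM in knockouts; 10 of 11 had groups that did not overlap, all lower. The 12 pan-neuronal genes summed to 3456 to 4426 and 1964 to 2415 CPM, with 9 of 12 lower and not overlapping. The 12 oral epithelium genes summed to 308 to 506 and 265 to 321 CPM, with 4 such genes (Cdh1, Krt14, Krt17 and Sfn) and 10 of 12 estimates lower. The keratin gene Krt17 measured 53.5 ± 23.4 and 15.7 ± 6.53 CPM, and the epithelial cadherin gene Cdh1 59.0 ± 7.996 and 41.3 ± 5.56 CPM. Hypothalamic genes were scarce: 16 genes summed to 12.4 to 17.4 CPM in controls and 9.24 to 19.2 CPM in knockouts, and Avp was at 0 in every library. Of its 6 tested genes, 3 had higher and 3 lower estimates (median log2 fold change 0.42). The 3 higher ones, Hmx2, Hmx3 and Sst, passed the filter only through the knockouts, so the count and the median rest on the filter. Hmx2 and Sst were higher and Sim1 lower in every knockout. Among its genes under the filter, Nkx2-1, a factor of the ventral hypothalamus, infundibulum and thyroid, had 4, 9 and 19 counts in controls and 0 in each knockout, and Otp 3, 7 and 5 against 0. Rax had 14, 10 and 12.6 counts against 0, 9 and 0. These 3, chosen after their values were seen, were under the filter.

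Of the eye genes, Crx, Atoh7 and Cryga had 0 counts in all libraries, and the 12 genes summed to 6.59 to 8.44 CPM in controls and 7.82 to 10.6 CPM in knockouts. The olfactory and vomeronasal list of 10 genes summed to 127 to 159 and 102 to 124 CPM, with 1 of 4 tested genes, Gnal, lower and not overlapping. Under the filter, Gng13 (0, 0 and 0.01 counts against 8.01, 9.75 and 17.9) and Cnga2 (3, 1 and 0 against 10, 5 and 8) were higher in every knockout. Skull base cartilage genes (9 in the table) spread widely in both groups, from 1779 to 4556 CPM in controls and 1894 to 5627 CPM in knockouts. In these lists of other cell types edgeR called 0 genes at an adjusted p of 0.05. DESeq2 called 7 sensory ganglion, 9 pan-neuronal, 3 oral epithelium and 1 olfactory gene lower. Limma-trend called 4 pan-neuronal genes and 1 olfactory gene, Gnal, lower.

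Across the 6 libraries, the log2 levels of the 7 tested members correlated pairwise with Pearson's r of 0.43 to 0.96 (median 0.89 over 21 pairs), a description that includes the group difference they share. After removal of each group's mean, r ran from -0.46 to 0.94 (median 0.66). The highest of these within-group values was that of Pomc with Lhx3 (0.94), followed by Pomc with Pou1f1 (0.92) and Pou1f1 with Cga (0.90). The values of Lhx4 with the other members lay between -0.46 and 0.08. All these values rest on 6 libraries, of which knockout replicate 3 lay far from the other knockouts. In it, Pomc, Lhx3 and Pou1f1 stood at 3.21%, 5.09% and 0% of the control mean, while Lhx4 was the highest of the knockouts. The part of this library in the correlations was not tested. Among 11578 other genes with a mean of at least 5 CPM, those closest to the members' mean profile over the 6 libraries were Nwd2, Rgs7bp, Hpcal1, Selenot and Htr3a, each with r = 0.99. That profile includes the group difference of the members. Lower levels of these genes in the knockouts thus follow from how they were chosen, and their values are a description. Rgs7bp, which anchors regulators of G protein signalling, measured 109 ± 14.8 CPM in wild type and 48.0 ± 11.5 CPM without Dlx5 (SD, n = 3 each; adjusted p = 0.0549, edgeR), and Htr3a, a serotonin-gated ion channel, 9.05 ± 1.42 and 3.96 ± 0.888 CPM (adjusted p = 0.0850, edgeR). Without knockout replicate 3, Rgs7bp and Nwd2 passed (edgeR adjusted p = 0.0248 and 0.0378).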

How the data were processed

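mRNA libraries (TruSeq mRNA kit, per the labels' protocols) were aligned to mm10 with STAR 2.4.1d and handled in Partek, per the submitters' processing notes. The sources used here do not give annotation, counting settings or strand use. The authors deposited estimated counts per gene. The table is called normalized, but its columns keep different totals; 64.5% of values above 0.5 were whole within 0.001. Another 1 column fits no labelled sample and was left out.

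Counts were rounded, genes with a mean of at least 1 CPM over the 6 libraries were kept, and edgeR 4.0.16 (R 4.3.3) quasi-likelihood tests with TMM compared knockout with control, with Benjamini-Hochberg adjustment over all kept genes. SEs were derived from the F statistic. The script was tested on simulated data. DESeq2 1.42.0 and limma 3.58.1 were alternatives. Gene models came from GENCODE M21 (GRCm38), promoters from RefSeq (GRCm38.p6); figures from matplotlib 3.10.9.

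The members and lists were chosen with earlier results of these data known. Named genes were the members, Dlx5, Six3os1, up to 4 tested genes of smallest p per list, and the 5 closest in profile; exceptions named after their values were seen are Tbx19, Six4, Pitx1, Barx1, Osr2, Pax9, genes at or near 0 and genes overlapping a member. Genes were matched by symbol. Some genes of the lists are not reported here.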

Additional observations from a re-analysis of the deposited data

How the results depend on the processing

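All 7 tested members had estimates below 0 under every alternative that tested them (17, or 16 for Lhx3 and Lhx4). How many passed differed. Against 0 members and 1 gene of 16218 in the edgeR test of all libraries, no filter gave 6 members and 679 genes, DESeq2 3 and 506, limma-trend 1 and 97 (1 and 96 with a pseudocount of 0.5), library totals without TMM 1 and 41, and a threshold of 0.1 gave 2 and 299. A filter of 5 CPM gave 74 genes and no member of the 5 it kept. Leaving out 1 library gave 0 to 1 members and 0 to 164 genes; the 1 member and the 164 genes were without knockout replicate 3. With the replicate number as a block, 0 members and 0 genes passed in edgeR (1826 genes at an unadjusted p of 0.05). Libraries of equal number did not deviate together (correlations -0.01, -0.01 and 0.02). With so few libraries per group, this cannot show whether equal numbers share a litter or batch. Removing ribosomal RNA rows, also from a wider list added after seeing the data, changed neither count. The cause of these differences was not tested. Members with a few counts per library, Hesx1 and Lhx4, are limited by depth.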

Other observations

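Some genes related to the members by family or by region lay above the controls. Pou3f4, a POU-domain gene of the same broad family as Pou1f1 that acts in inner ear and craniofacial mesenchyme, measured 20.5, 6.74 and 3.45 CPM in wild type and 54.4, 32.2 and 42.0 CPM without Dlx5 (edgeR adjusted p = 0.133; log2 fold change 2.05, SE 0.50). Hmx2, a homeobox gene of hypothalamus and inner ear, had 4, 4 and 2 counts in wild type and 15, 17 and 28 without Dlx5 (log2 fold change 2.41; adjusted p = 0.0710, edgeR). Sst, which encodes somatostatin, had 3, 9 and 5 counts against 11, 17 and 103, the last in knockout replicate 3. Its log2 estimate was 2.63, and 1.39 without that library. Hmx2 and Sst passed the filter only through the knockouts, so their differences are bound to the filter. Sim1, a factor of hypothalamus and muscle precursors, was lower in estimate, at 4.35 ± 0.759 CPM in wild type and 2.28 ± 0.575 CPM without Dlx5 (SD, n = 3 each; adjusted p = 0.255, edgeR).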
